A study of Mus musculus with 24 samples.

Results

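The 39 genes described here code for the enzymes and regulators that make sterols and fatty acids. They were taken by name from textbook pathways out of 37229 genes in the deposited count table, and all 39 had enough reads to be tested. They were followed in 24 single mouse embryos of the outbred ICR strain, made by in vitro fertilization. The controls were intact embryos at the 8-cell stage (n = 4), the morula stage (n = 5) and the blastocyst stage (n = 3). The split embryos each grew from 1 blastomere of a late 2-cell embryo: the embryo was held in biopsy medium, its 2 cells were parted with a micromanipulator, and each was cultured by itself in a modified sodium hyaluronate gel. Both sisters of 3 such embryos were collected as morulae (6 embryos) and both sisters of another 3 as blastocysts (6 embryos). Controls were never parted and were kept in matched culture, but the labels do not say whether they too met the biopsy medium or the gel, so that parting and handling cannot be told apart. Poly(A) RNA of each embryo was copied and amplified by Smart-seq2. The study set out to see whether the RNA of split embryos comes to resemble that of intact ones. Trophectoderm markers summed to 163 to 246 CPM in 8-cell embryos, 567 to 982 CPM in control morulae and 2140 to 3650 CPM in control blastocysts, rising in the order of the labelled stages.

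Cells make cholesterol from acetyl-CoA by way of mevalonate, squalene and lanosterol, and the last steps remove methyl groups from lanosterol and move its double bonds. Fatty acids start from the same acetyl-CoA and are then lengthened, desaturated and bound to coenzyme A. Both pathways are switched on by the SREBP transcription factors, which the escort protein Scap carries to the Golgi when membrane sterol is low, and which the Insig proteins hold back when sterol is plentiful. The preimplantation embryo draws on this chemistry for the membranes of its dividing cells.

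The counts of both sisters of a pair were added, which left 18 units (12 intact embryos and 6 pairs), and levels are given as CPM, the counts of a unit divided by its library total and edgeR's TMM factor, to the usual common scale. A gene is called higher or lower where edgeR's quasi-likelihood test gave a Benjamini-Hochberg adjusted p under 0.05 over 15875 genes. With 3 to 5 units a group, a gene that misses this threshold may still differ. Levels of different genes are compared in TPM, the deposited unit that allows for gene length. Libraries held from 11316911 to 38514899 counted reads. No source says which litters or culture drops the embryos of a group came from, and the p-values therefore speak only of the scatter among the embryos sequenced. RNA was measured per embryo, so that fewer cells of a type and less RNA per cell cannot be told apart.

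Promoters of the members are described first, and no link between their letters and the changes in level was tested. RefSeq's promoter table (build GRCm38.p6; 250 bases before to 50 after each start) held 32 of the 39 genes, in 42 windows. Fdps, Fdft1, Sqle, Stard4, Scd1, Scd2 and Fads1 had no entry. On both strands, the core of the sterol regulatory element that SREBP binds, TCACNCCAC, was found in 1 member (3.12% of the 32), Hmgcs1, against 1.44% of 27025 genes with a window and 1.49% of the 11385 that were also tested here. CCAAT, the box of the factor NF-Y, was found in 26 members (81.2%), against 41.1% of all genes and 43.5% of tested genes. It was in all 8 of the genes for the steps from lanosterol to cholesterol, and in 5 of 6 mevalonate genes. The Sp1 box GGGCGG was also found in 26 members (81.2%), against 38.2% of all genes and 64% of tested genes. The E-box CACGTG was found in 6 members (18.8%), against 8.09% and 11.2%. These are counts of exact letters in a window and not of bound sites, and looser forms of a motif were not counted. The 150 bases before the start are given 5′ to 3′ on the gene's strand. They are shown for Hmgcs1, the only holder of TCACNCCAC, and for the 3 genes with an entry that were called higher in split blastocysts. Capitals mark TCACNCCAC and CCAAT, the latter read as ATTGG where it lies on the other strand. These 4 were chosen after their values were seen.
Hmgcs1 (chr13:119690201-119690350, plus strand): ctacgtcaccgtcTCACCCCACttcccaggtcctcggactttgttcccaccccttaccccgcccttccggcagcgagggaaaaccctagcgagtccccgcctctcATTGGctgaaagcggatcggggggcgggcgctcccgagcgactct
Idi1 (chr13:8885456-8885605, plus strand): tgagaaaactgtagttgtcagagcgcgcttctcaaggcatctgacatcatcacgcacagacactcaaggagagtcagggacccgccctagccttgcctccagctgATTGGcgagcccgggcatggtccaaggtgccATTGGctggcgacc
Ebp (chrX:8193513-8193662, minus strand): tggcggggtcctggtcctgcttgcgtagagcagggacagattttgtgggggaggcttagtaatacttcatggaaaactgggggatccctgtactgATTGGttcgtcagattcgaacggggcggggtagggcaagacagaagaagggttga
Acot8 (chr2:164804882-164805031, minus strand): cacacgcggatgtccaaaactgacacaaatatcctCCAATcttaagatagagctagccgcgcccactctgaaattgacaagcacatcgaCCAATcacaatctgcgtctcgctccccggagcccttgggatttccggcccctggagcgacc
The 3 called genes each hold at least 1 CCAAT box in this stretch and none holds TCACNCCAC, while Hmgcs1 holds both. Members that were not called, among them Mvk, Mvd, Msmo1 and Nsdhl, also hold CCAAT boxes in the same stretch. In the longer window 26 of the 32 members hold CCAAT, so the box does not set the called genes apart.

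**Figure D1:**
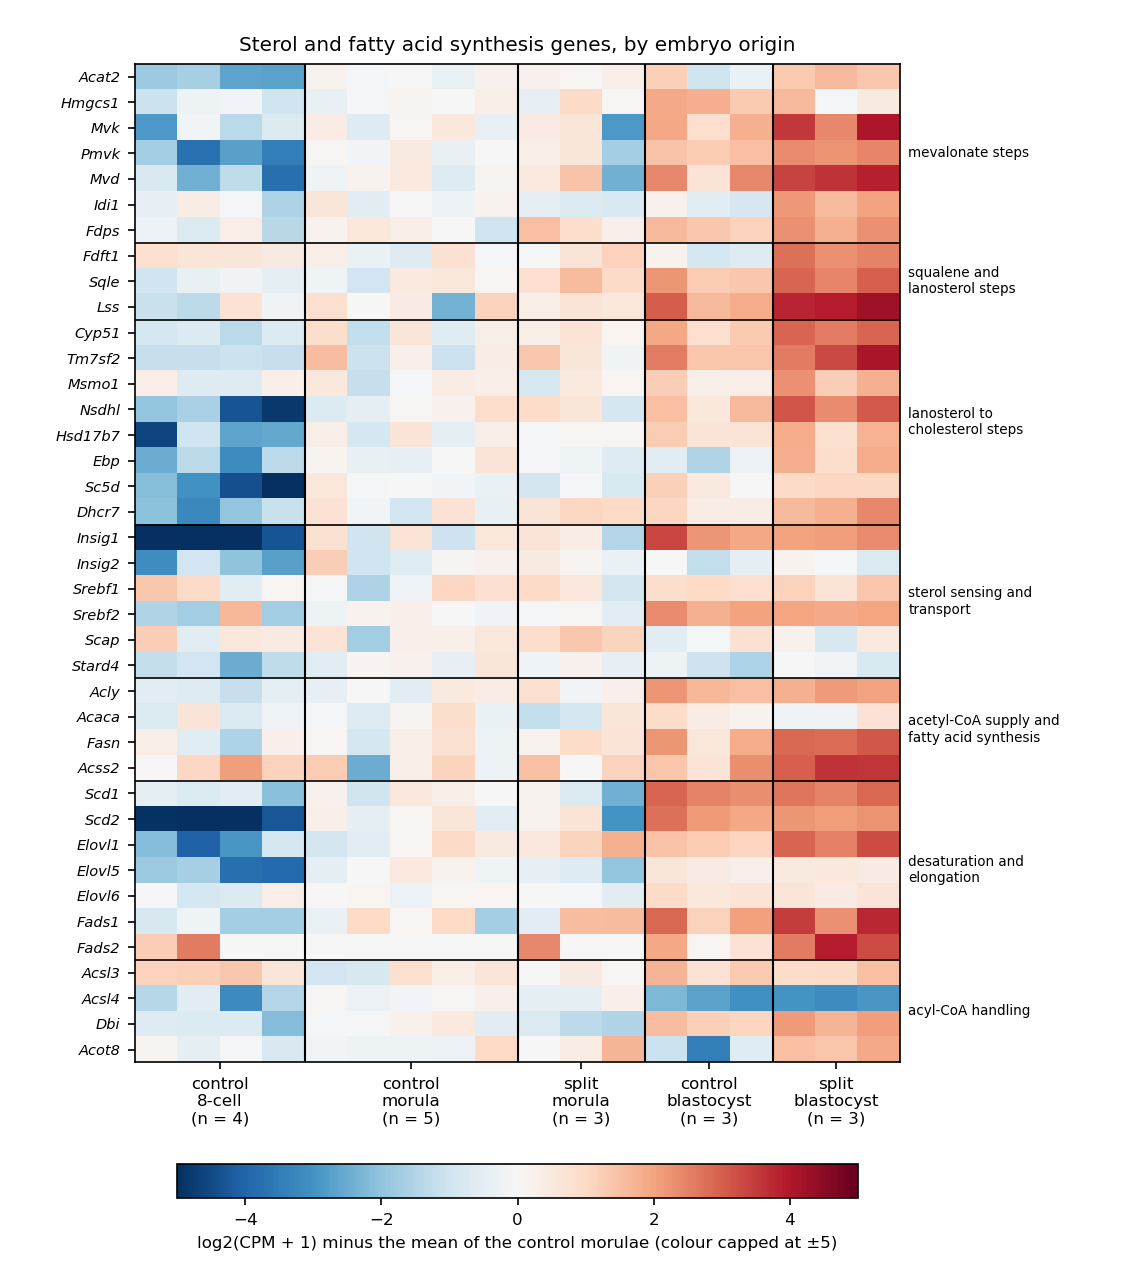
Level of each of the 39 genes (rows, grouped by role) in the 18 units (columns), as log2(CPM + 1) minus the mean of the 5 control morulae. Red is above and blue below the control morulae, and colours are capped at 5. Most cholesterol enzymes are reddest in split blastocysts, while Acsl4 is blue in both kinds of blastocyst.

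The summed level of the set was larger at each later stage, in intact and in split embryos, but the members did not all peak in the same group. The summed level of the 39 genes was 807.6 ± 153.8 TPM in 8-cell embryos (SD, n = 4), 2145 ± 403.9 in control morulae (n = 5), 2284 ± 181.6 in split morulae (n = 3 pairs), 5726 ± 2245 in control blastocysts (n = 3) and 6825 ± 915.1 in split blastocysts (n = 3 pairs). Control blastocyst 1, at 8304 TPM, set the top of the control range, and 4023 TPM of that sum was Insig1. By group, Insig1 alone held 2457 ± 1356 TPM in control blastocysts and 1496 ± 266.5 TPM in split blastocysts. Not every role rose at each step: the squalene and lanosterol genes summed to 143 ± 5.657 TPM in 8-cell embryos and 118.1 ± 37.68 TPM in control morulae. Of the 18 enzymes from acetyl-CoA to cholesterol, 17 had their highest group mean in TPM in split blastocysts, and the exception was Hmgcs1. Of the other 21 members, 7 did, and 10 were highest in control blastocysts, among them Insig1, Srebf1, Srebf2, Scd1 and Scd2. The lead changed with stage: Acsl4 was the most abundant member in 8-cell embryos and in both kinds of morula, at 534.4 ± 87.12 TPM in control morulae, and Insig1 in both kinds of blastocyst.

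**Figure D2:**
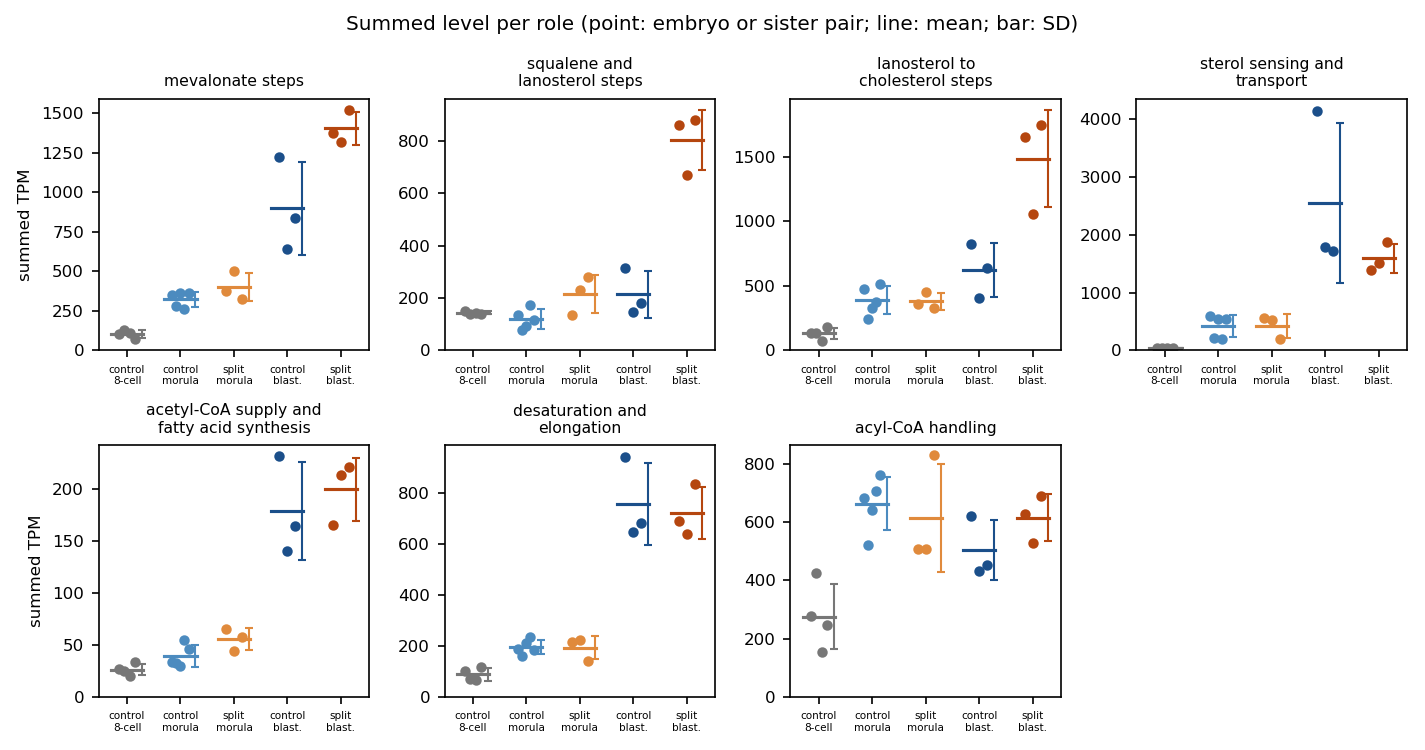
Summed TPM of the genes of each role in each unit (points), with the group mean (line) and SD (bar). The 3 genes of the squalene and lanosterol steps lie at 672 TPM or more in every split blastocyst pair and at 316.1 TPM or less in every control blastocyst.

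From the 8-cell stage to the morula, the called rises in intact embryos included genes of the last cholesterol steps and both Insig genes. In control morulae 18 of the 39 genes were higher than in 8-cell embryos and 1 was lower, where 14.3% of all tested genes were higher and 10.7% lower. The median log2 difference was 0.99 over the members and 0.10 over all genes. Of the 8 genes that turn lanosterol into cholesterol, 7 rose, but in a fit of these 2 stages alone only 4 were called (Nsdhl, Ebp, Sc5d and Dhcr7). Cyp51 lost its call in 10 of 22 alternatives and Hsd17b7 in 6. The gene not called was Msmo1, an oxidase that removes methyl groups from the ring, at 0.21 ± 0.34 (log2 difference ± SE).

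Insig1, an anchor that holds SREBP in the endoplasmic reticulum when sterol is plentiful, measured 8.56, 7.11, 2.59 and 18.9 CPM in the 8-cell embryos. In the control morulae it measured 668, 199, 631, 192 and 590 CPM. The groups were far apart, and the morulae themselves were uneven, with 2 low and 3 high values. Its log2 difference was 5.62 ± 0.72 (adjusted p = 3.92e-05). Its relative Insig2 rose by 2.38 ± 0.61 (adjusted p = 0.00635), from 1.65 to 10.8 CPM up to 10.5 to 52.5 CPM, ranges that overlap slightly. Srebf1, Srebf2 and Scap did not pass the test in this step.

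Srebf2, the SREBP that drives mainly cholesterol genes, measured 5.81, 4.73, 60.4 and 4.75 CPM in the 8-cell embryos and 15.1, 20.9, 21.8, 17.9 and 16.2 CPM in the control morulae. One 8-cell embryo, replicate 3, stood above every morula while the other 3 stood below all of them. The fitted log2 difference was -0.04 ± 0.56 with all embryos (adjusted p = 0.987). Without 8-cell replicate 3 it was 1.85, and the gene was then called higher in morulae (adjusted p = 0.000227).

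Among the enzymes, Sc5d, the desaturase of the next to last step, measured 24, 12.4, 4.26 and 1.82 CPM in 8-cell embryos and 162, 101, 108, 98 and 86.7 CPM in morulae. No morula fell into the 8-cell range. On the log2 scale the difference was 3.38 ± 0.54 (adjusted p = 0.000128).

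Nsdhl, a dehydrogenase of the demethylation complex, measured 6.64, 8.59, 0.501 and 0.0674 CPM in 8-cell embryos and 17.5, 20.8, 30.1, 33.7 and 53.4 CPM in morulae, a log2 difference of 2.97 ± 0.86 (adjusted p = 0.0187). The groups did not overlap. Tm7sf2, a sterol reductase, had 1 count in all the 8-cell embryos together and 147 in the morulae. The ratio of the summed CPM was 218, with a 95% exact counting interval of 38.5 to 8670 that covers counting error only. Most of these reads came from 3 of the 5 morulae, at 5.4, 1.62 and 1.85 CPM, and the other 2 were at 0.0663 and 0.0654 CPM. Vps51 overlaps it on the same strand, so that shared reads cannot be assigned with certainty.

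Upstream, Pmvk, the kinase that adds the next phosphate to phosphomevalonate, measured 13.1, 2.56, 6.09 and 3.3 CPM in 8-cell embryos and 48.2, 41.9, 63.7, 35.1 and 45.3 CPM in morulae. It rose by 2.90 ± 0.45 (log2; adjusted p = 5.95e-05), with no overlap. Acat2, the thiolase of the opening step, rose by 2.17 ± 0.33 (adjusted p = 4.18e-05). The other 5 mevalonate genes and the 3 genes of the squalene and lanosterol steps did not pass, and their log2 differences ran from -0.54 for Fdft1 to 1.96 for Mvd.

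The desaturase Scd2, which puts a double bond into saturated acyl chains, measured 1.54, 0, 0 and 3.07 CPM in 8-cell embryos and 92.3, 55.7, 82.6, 118 and 53.3 CPM in morulae. The groups lay more than an order of magnitude apart. The difference on the log2 scale was 6.10 ± 1.12 (adjusted p = 0.000982). Its near-identical relative Scd1 was already present in 8-cell embryos, at 13.3 to 43.2 CPM, and its log2 difference of 0.92 ± 0.41 did not pass (adjusted p = 0.106). How reads shared by Scd1 and Scd2 were counted is not given in the sources used here.

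The elongases Elovl1 and Elovl5 rose by 2.56 ± 0.81 and 2.59 ± 0.47. Acsl4, which activates long polyunsaturated acids, rose by 1.42 ± 0.33, the acyl-CoA carrier Dbi by 0.99 ± 0.29, the sterol carrier Stard4 by 1.45 ± 0.33 and the citrate lyase Acly by 0.73 ± 0.25. Acly lost its call in 11 of 22 alternatives, Elovl1 in 6 and Dbi in 1, while Elovl5, Acsl4 and Stard4 kept theirs in all 22. The desaturase Fads2 was the single called fall. It measured 1.33, 4.98, 0 and 0 CPM in 8-cell embryos and 0 in all 5 morulae, so that its mean was at least 8.04-fold lower against a floor of 3 counts (0.196 CPM) in the median morula. That fall rested on 2 of 4 embryos and was not called without 8-cell replicate 2 or without any 1 of the 5 morulae.

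Fitting only the embryos of these 2 stages called 12 members, all of them higher, in place of 19. That fit called 13.8% of all genes higher.

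Between morula and blastocyst, the called rises in intact embryos included Hmgcs1 and Pmvk of the mevalonate steps, Sqle and Lss of lanosterol formation, Acly, Fasn and the desaturase Scd1. In control blastocysts 12 members were higher than in control morulae and 1 was lower, where 3.12% of all tested genes were higher and 7.46% lower. The median log2 difference was 1.22 over the members and 0.11 over all genes.

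Scd1 measured 457, 342 and 304 CPM in control blastocysts, against 69.4, 29.3, 86, 74.4 and 59 CPM in control morulae. Every blastocyst was more than 3 times the highest morula. The log2 difference was 2.53 ± 0.44 (adjusted p = 0.000522).

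Insig1 measured 4006, 1808 and 1529 CPM in control blastocysts, above the highest morula at 668 CPM. Its log2 difference was 2.42 ± 0.60 (adjusted p = 0.0166). Blastocyst 1 held more than 2 times the level of the others, and without it the gene was not called. Srebf2 measured 98.2, 64.4 and 75.7 CPM, with the morulae at 15.1 to 21.8 CPM. It rose by 2.11 ± 0.60 (adjusted p = 0.0243) and lost its call without blastocyst 1 or 3 or without morula 1, 4 or 5.

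Lss, the cyclase that folds squalene epoxide into lanosterol, measured 132, 48.4 and 58 CPM in blastocysts and 27.1, 15.6, 20.6, 2.16 and 34.7 CPM in morulae. The fitted log2 difference was 1.99 ± 0.58 (adjusted p = 0.0303). Acly, which cleaves citrate to cytosolic acetyl-CoA, measured 330, 229 and 207 CPM in blastocysts and 54.2, 73.3, 49.6, 101 and 93.3 CPM in morulae, a log2 difference of 1.78 ± 0.26 (adjusted p = 6.86e-05). Neither gene overlapped between stages.

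Hmgcs1, the synthase that makes HMG-CoA, measured 465, 433 and 306 CPM in blastocysts and 93.6, 118, 136, 125 and 150 CPM in morulae, again with no overlap. On the log2 scale the difference was 1.69 ± 0.33 (adjusted p = 0.00132). The other called rises were Pmvk, Sqle, Cyp51, Fasn, Elovl6 and Dbi, by 0.73 to 1.65 on the log2 scale.

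Acsl4 went the other way. It measured 1323, 1047, 1160, 1330 and 1522 CPM in control morulae and 268, 196 and 150 CPM in control blastocysts. The lowest morula was more than 3 times the highest blastocyst. It fell by 2.64 ± 0.40 on the log2 scale (adjusted p = 0.000138).

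Leaving out control blastocyst 1 reduced the count from 13 to 5 members (Hmgcs1, Sqle, Acly and Scd1 higher, Acsl4 lower). The share of all genes called higher then fell from 3.12% to 1.44%. Leaving out control blastocyst 3 reduced the count to 7 members and that share to 1.41%. Calls over all genes thus fell as well, and those of the other members depended on which of the 3 embryos were kept.

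At the morula stage no difference between split and control embryos passed the test in these genes. None of the 39 was called in either direction, where 0.0693% of all genes were called higher and 0.0567% lower by edgeR. At an unadjusted p under 0.05, 2 members were higher (Sqle and Fads2) and 1 was lower (Dbi). In either direction, 2377 of all 15875 genes had such a p. DESeq2 called these same 3 members after adjustment, where it called 266 of 15875 genes higher and 410 lower. The median log2 difference was 0.15 over the members and 0 over all genes.

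Split and control morulae did not overlap for 3 members: Sqle and Scap were higher in split morulae, where 3.54% of all genes had no overlap in that direction, and Dbi was lower, where 3.71% did. Sqle, the epoxidase of the first oxygen-requiring step, measured 98.2, 166 and 108 CPM in the split pairs and 46.9, 28.2, 78.2, 82.1 and 59.5 CPM in the controls, a log2 difference of 1.07 ± 0.30 (adjusted p = 0.139). Scap measured 16.2, 22.4 and 18.7 CPM in the split pairs and 13.6, 1.79, 9.92, 9.88 and 12.7 CPM in the controls, a log2 difference of 0.99 ± 0.66 (adjusted p = 0.52). Dbi measured 37.3, 24.8 and 21.6 CPM in the split pairs and 58, 59.6, 72.8, 88 and 42.4 CPM in the controls, a log2 difference of -1.20 ± 0.33 (adjusted p = 0.125).

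**Figure D3:**
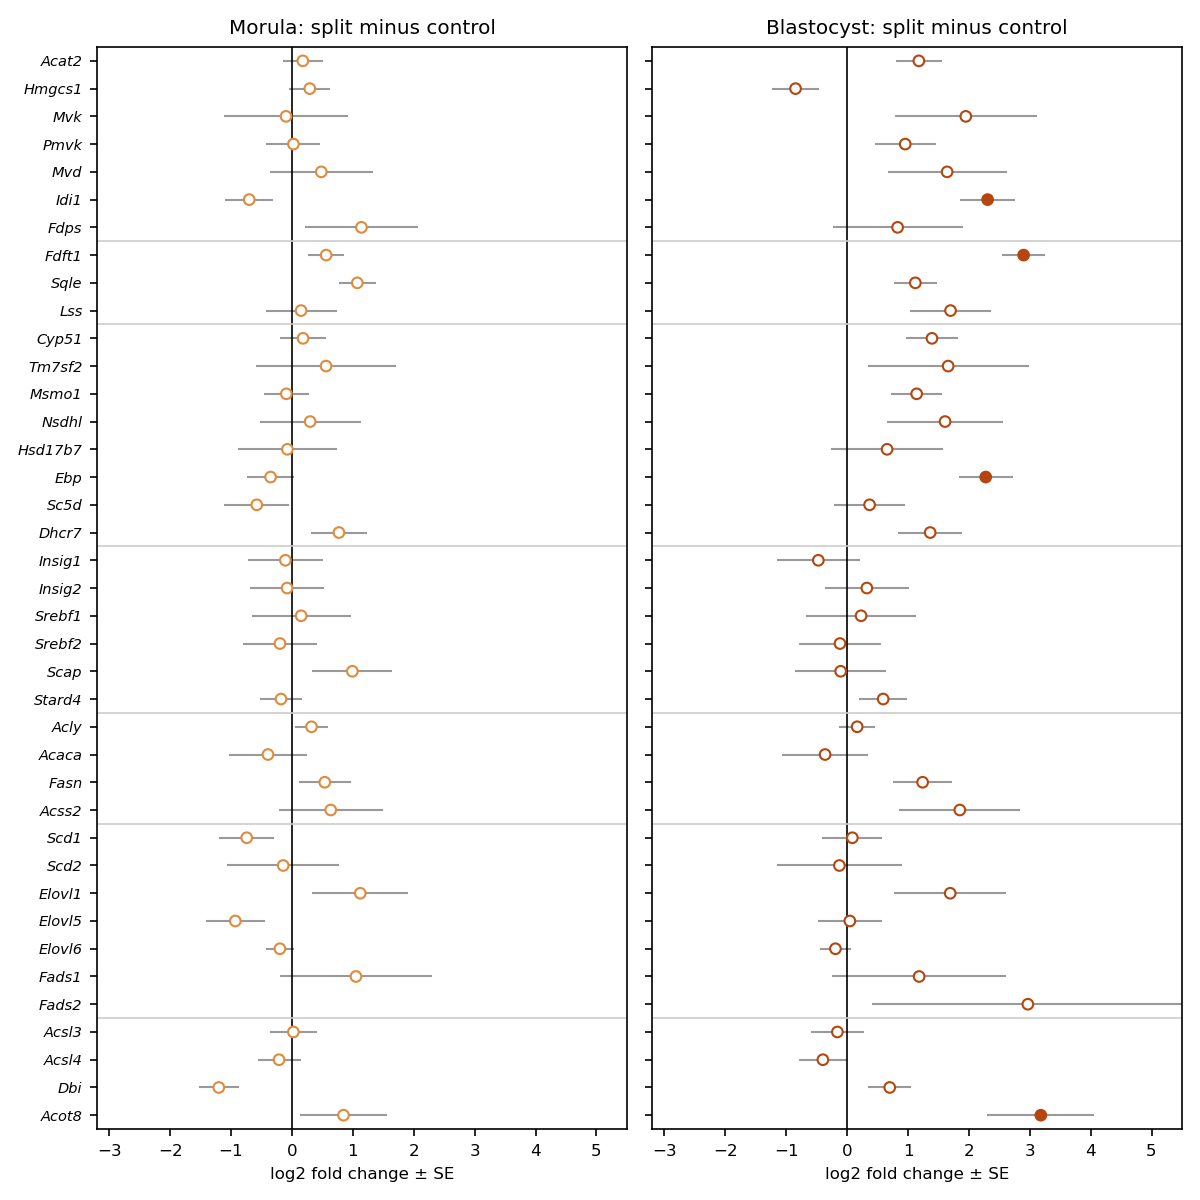
Log2 fold change with its SE of each gene in split against control embryos, at the morula (left) and the blastocyst stage (right). Filled points were called. Fads2 is left out on the left, where all control morulae were at 0, and its SE bar runs past the axis on the right. At the blastocyst stage 4 points are filled, and 30 of 39 lie above 0.

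At the blastocyst stage 3 of the 18 cholesterol enzymes and 1 gene of acyl-CoA handling were higher in split than in control embryos. Idi1, Fdft1, Ebp and Acot8 passed the test. Those 4 of 39 compare with 3.42% of all genes called higher, and none of the members was called lower, where 1.32% of all genes were. The median log2 difference was 0.96 over the members and 0 over all genes, and 30 of the 39 differences were above 0.

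The groups did not overlap for 21 members, all higher in split blastocysts, where 17.2% of all genes had no overlap in that direction and 13.7% in the other. The 21 were 6 of 7 mevalonate genes (all but Hmgcs1), the 3 of the squalene and lanosterol steps, 6 of 8 of the later cholesterol steps (all but Hsd17b7 and Sc5d), and Fasn, Acss2, Elovl1, Fads2, Dbi and Acot8. None was a gene of sterol sensing or transport.

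Fdft1, squalene synthase, commits farnesyl diphosphate to sterols. It measured 1036, 749 and 875 CPM in the split pairs and 175, 83.8 and 97.7 CPM in the control blastocysts. The lowest pair was more than 4 times the highest control. The difference on the log2 scale was 2.90 ± 0.36 (adjusted p = 5.23e-05), and the call was kept under all 19 alternatives tried. Scaled over the 24 single embryos, sisters measured 594 and 1418, 484 and 975, and 1054 and 737 CPM. The cathepsin gene Ctsb overlaps Fdft1 on the other strand in GENCODE M21, and without a stated strand setting their reads cannot be told apart in the overlap. Ctsb was itself higher in split blastocysts, by 1.60 ± 0.44 (adjusted p = 0.0381), at 202, 195 and 269 CPM against 79.1, 87.8 and 53.3 CPM, and its part in the Fdft1 result was not tested.

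Idi1, the isomerase that turns isopentenyl diphosphate into its reactive form, measured 152, 102 and 137 CPM in the split pairs and 38.7, 22 and 18.2 CPM in the controls. All pairs stood above all controls. The log2 difference was 2.31 ± 0.45 (adjusted p = 0.003). With the sisters numbered 1 alone it was 1.88 and missed the threshold (adjusted p = 0.0812), the only one of 19 alternatives to end the call.

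Ebp, the isomerase that shifts the ring double bond in the later steps, measured 664, 346 and 687 CPM in the split pairs and 133, 65.3 and 153 CPM in the controls. The groups were clear of each other, with the second pair below the other pairs. Its log2 difference was 2.28 ± 0.44 (adjusted p = 0.00349) and the call was kept under all 19 alternatives.

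Acot8, a peroxisomal thioesterase that frees fatty acids from coenzyme A, measured 33.7, 31.2 and 44.7 CPM in the split pairs and 4.84, 0.135 and 7.08 CPM in the controls. The 3 pairs lay close together and the controls were all low, 1 of them near 0. The fitted log2 difference was 3.18 ± 0.88 (adjusted p = 0.0375). The call was lost under 8 of 19 alternatives, among them leaving out control blastocyst 1 or 2 or any of the 3 pairs, with adjusted p from 0.000973 to 0.126 over all 19. Snx21 overlaps it on the other strand but held 3.54 CPM or less in every unit.

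The other 15 cholesterol enzymes did not pass, and Sqle, Cyp51 and Acat2 had the lowest adjusted p among them. Sqle measured 420, 306 and 442 CPM in the split pairs against 261, 136 and 140 CPM in the controls, a log2 difference of 1.12 ± 0.35 (adjusted p = 0.0734). Cyp51, which removes the first methyl group of lanosterol, measured 258, 202 and 259 CPM against 131, 58.8 and 84.1 CPM, a difference of 1.39 ± 0.43 (adjusted p = 0.0674). Acat2 measured 429, 527 and 437 CPM against 392, 86.1 and 136 CPM, a difference of 1.18 ± 0.38 (adjusted p = 0.0844). Acat2 has a near-identical neighbour, Acat3, so that its count is uncertain. For each of the 3, control blastocyst 1 was the nearest control to the split pairs. Without that embryo Acat2 and Sqle were called higher and Acot8 was not.

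How many members passed depended on the fit. DESeq2 called 8 members, adding Acat2, Sqle, Cyp51 and Msmo1, where it called 5.54% of all genes higher. A limma-voom fit on single embryos also called 8, where it called 1.82% of all genes higher. A fit on the blastocysts alone, with 12993 genes tested, called 17 members higher and 8.94% of all genes higher. The 13 added there were Mvk, Pmvk, Mvd, Sqle, Lss, Cyp51, Msmo1, Nsdhl, Dhcr7, Fasn, Acss2, Elovl1 and Dbi. With the sisters numbered 1 alone, Fdft1 and Ebp were called and no other member was, where 2.4% of all genes were called higher.

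**Figure D4:**
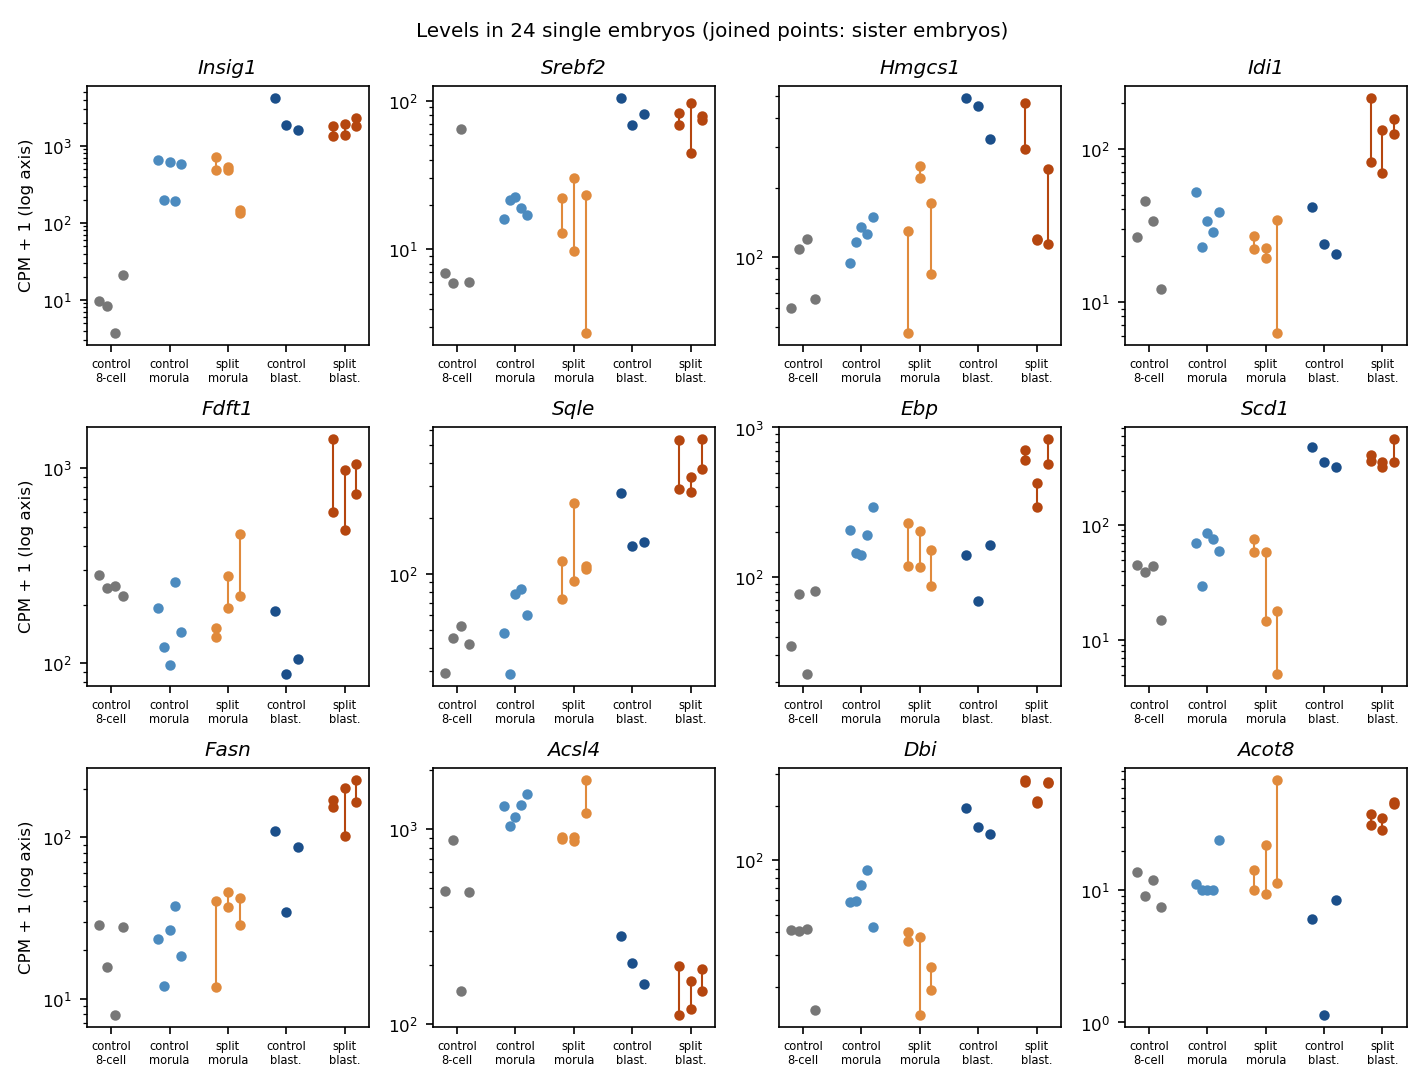
Level of 12 of the genes in all 24 embryos, as CPM + 1 on a log axis, with sisters joined by a line. All 6 split blastocysts lie above the 3 control blastocysts for Idi1, Fdft1, Sqle, Ebp, Dbi and Acot8. For Sqle the nearest values nearly touch, at 276.6 and 274.2 CPM. With sisters summed, 17.2% of all genes had no overlap in that direction, and the share over single embryos was not counted. The groups overlap for Insig1, Srebf2 and Scd1.

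Sterol sensing genes did not share this pattern. Insig1 measured 1590, 1661 and 2041 CPM in the split pairs and 4006, 1808 and 1529 CPM in the controls. The ranges overlapped, and the log2 difference was -0.47 ± 0.69 (adjusted p = 0.905). Srebf2 measured 74.2, 71.1 and 74.5 CPM in the split pairs, inside the control range of 64.4 to 98.2 CPM. Srebf1 measured 12, 8.52 and 14.4 CPM against 9.68, 10.7 and 9.46 CPM, Scap 9.57, 4.25 and 12 CPM against 5.44, 7.75 and 14.6 CPM, and Insig2 25, 20.9 and 12.7 CPM against 22.3, 8.76 and 15.7 CPM. None of the 6 sensing and transport genes was called, nor did any of them have a p under 0.05 before adjustment. Their log2 differences ran from -0.47 for Insig1 to 0.59 for Stard4.

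Hmgcs1 stood apart from the other mevalonate genes. It measured 385, 117 and 168 CPM in the split pairs and 465, 433 and 306 CPM in the controls, so that 2 of 3 pairs lay below every control. On the log2 scale the difference was -0.85 ± 0.38 (adjusted p = 0.284). Without the first pair the gene was called lower in split blastocysts.

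In the fatty acid branch the split blastocysts were mixed. Fasn, which builds palmitate, measured 163, 154 and 191 CPM in the split pairs against 103, 31.9 and 80.3 CPM, a log2 difference of 1.24 ± 0.49 (adjusted p = 0.194), with no overlap. Acss2, which makes acetyl-CoA from acetate, measured 43.1, 67.4 and 66.4 CPM against 13.8, 7.89 and 27.3 CPM, a difference of 1.85 ± 1 (adjusted p = 0.398). It overlaps Gss on the other strand, and Gss had 25112 counts in all to its 10889. Elovl1, at 122, 92.6 and 156 CPM against 42.7, 38.1 and 33.9 CPM (1.69 ± 0.92; adjusted p = 0.412), likewise overlaps Cdc20, which had 203520 counts to its 22943 and was itself higher in split blastocysts, by 1.23 ± 0.26 (adjusted p = 0.00611). The differences of Acly, Acaca, Scd1, Scd2, Elovl5, Elovl6, Acsl3 and Acsl4 lay between -0.40 and 0.17, with adjusted p of 0.788 or more.

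Other features of the libraries moved with this comparison. The summed level of 8 trophectoderm markers, the outer layer of the blastocyst, ran from 5080 to 6610 CPM in the split pairs and from 2140 to 3650 CPM in control blastocysts, led by the keratins Krt18 and Krt8 in the first and Krt18 and Gata3 in the second. None of the 8 was at 0 in either group. The 7 inner cell mass markers overlapped, at 337 to 471 and 381 to 558 CPM. Mitochondrial genes took 0.841% to 2.34% of counts in split blastocysts and 3.47% to 4.85% in the controls. At an equal depth of 11316911 counts, 12308 to 14048 genes were detected in split blastocysts and 14020 to 15507 in controls. Their part in the results was not tested. Markers of cumulus, fibroblast and sperm cells summed to at most 13.2 CPM in any unit, and those of blood to at most 71.1 CPM.

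A test of whether the split effect differed between stages called 4 members, all with a more positive effect at the blastocyst: Idi1 by 3.01 ± 0.60 (log2; adjusted p = 0.0109), Fdft1 by 2.34 ± 0.46 (adjusted p = 0.00953), Ebp by 2.63 ± 0.59 (adjusted p = 0.0254) and Dbi by 1.90 ± 0.48 (adjusted p = 0.0436). Of all genes, 1.37% were called in that direction and 0.265% in the other. For Dbi the sign of the split difference turned between stages: -1.20 ± 0.33 in morulae, as given above, and 0.70 ± 0.35 in blastocysts (adjusted p = 0.351), at 276, 207 and 268 CPM in the split pairs and 185, 146 and 131 CPM in the controls. Neither difference of Dbi was called by itself. For Idi1 and Ebp the differences at the morula were -0.70 ± 0.39 and -0.35 ± 0.38, neither called. The call of Dbi was lost in 19 of 27 alternatives, that of Ebp in 13, and those of Fdft1 and Idi1 in 3 each, while the sign was kept in all of these. Leaving out 1 unit at a time left 2 to 4 members called, with 2 left without control blastocyst 2, split morula pair 2 or 3, or split blastocyst pair 1 or 3. Over these fits 0.562% to 1.15% of all genes were called with a more positive effect at the blastocyst.

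The climb from morula to blastocyst could be read a second time in the split embryos, which share no sample with the controls. In split blastocysts 12 members were higher than in split morulae and 1 was lower, where 1.22% of all genes were higher and 2.95% lower. The median log2 difference was 1.82 over the members and 0.05 over all genes. Of the 12 members called higher in each series, 8 were the same, 66.7% of each list: Pmvk, Sqle, Lss, Cyp51, Acly, Fasn, Scd1 and Dbi. Over all genes, 58 were called higher in both, 11.7% of the 496 called in controls and 29.9% of the 194 called in split embryos. Both series come from a single fit with a shared estimate of the spread.

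Insig1, Srebf2, Hmgcs1 and Elovl6 were called in the controls alone, and Idi1, Fdft1, Msmo1 and Ebp in the split embryos alone. Of these 8 genes, the stage changes of Idi1, Fdft1 and Ebp differed between the series by the test above, and those of the other 5 did not pass it.

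Lss measured 19.5, 24.3 and 22.9 CPM in split morulae and 228, 244 and 303 CPM in split blastocysts. The difference on the log2 scale was 3.54 ± 0.72 (adjusted p = 0.00651). Scd1 measured 67.8, 35.7 and 10.5 CPM and then 388, 336 and 447 CPM, a difference of 3.36 ± 0.54 (adjusted p = 0.00102). Dbi, at 37.3, 24.8 and 21.6 CPM in split morulae and 276, 207 and 268 CPM in split blastocysts, rose by 3.17 ± 0.38 (adjusted p = 4.47e-05). No pair of one stage reached the range of the other for any of the 3.

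Idi1 went from 24, 20.1 and 19.3 CPM to 152, 102 and 137 CPM, a rise of 2.62 ± 0.45 (adjusted p = 0.0015). In the controls the same step gave -0.39 ± 0.39 (adjusted p = 0.608). Cyp51 went from 41.1, 54.5 and 36 CPM to 258, 202 and 259 CPM, a rise of 2.45 ± 0.44 (adjusted p = 0.00213). Fasn went from 23.9, 41.1 and 34.5 CPM to 163, 154 and 191 CPM, a rise of 2.35 ± 0.51 (adjusted p = 0.00786).

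Acsl4 fell here as well, from 910, 897 and 1500 CPM in split morulae to 158, 143 and 166 CPM in split blastocysts. The log2 difference was -2.83 ± 0.42 (adjusted p = 0.000528), next to -2.64 ± 0.40 in the controls. It was the only member called lower in both series.

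**Figure D5:**
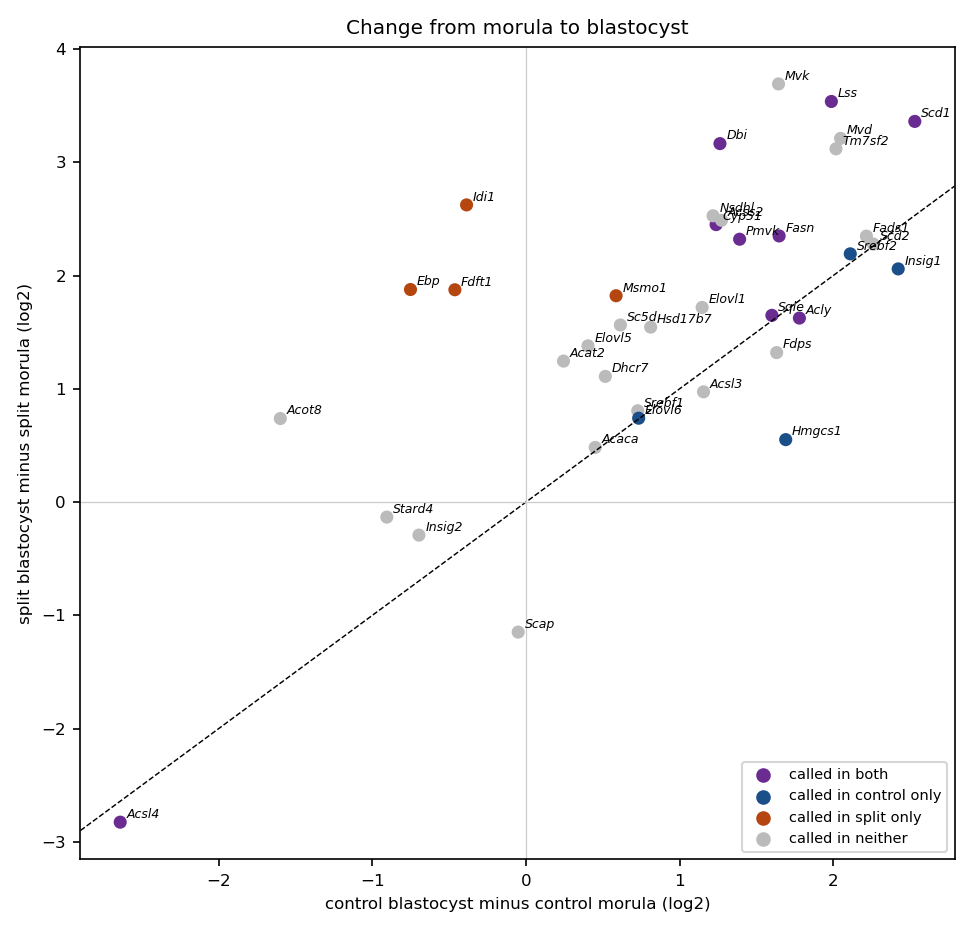
Log2 change from morula to blastocyst of 38 of the genes in intact embryos (x axis) and in split embryos (y axis), coloured by where the change was called. The dashed line marks equal change, and Fads2 is left out because all control morulae were at 0. Idi1, Fdft1 and Ebp lie to the left of 0 and well above the line, and Acsl4 lies farthest to the lower left.

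Sister morulae lay about as far apart in these genes as morulae of different pairs. The median difference between sisters over the 39 genes, without sign, was 0.80, 0.72 and 0.97 on the log2 CPM scale in the 3 pairs of split morulae, where the median over all genes was 0.44, 0.42 and 0.61. Morulae from different pairs differed by 0.90 over the same 39 genes. In split blastocysts the sisters differed by 0.48, 0.57 and 0.34 over the members, near the 0.38, 0.53 and 0.37 over all genes, and embryos of different pairs by 0.41. These are descriptions with no test. Lss gave the widest gaps between sister morulae, 5.57 in the second pair and 5.53 in the third, both with the sister numbered 2 higher. Scd2 differed by 4.20 in the third pair, in the same direction.

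Other genes of lipid metabolism were taken as lists chosen by name. Of 11 further genes of sterol synthesis and SREBP processing, Acat1, the mitochondrial thiolase, was the only one called between split and control blastocysts. It was higher by 1.28 ± 0.31 (adjusted p = 0.0143), where 3.42% of all genes were called higher. Acat1 was also higher in control morulae than in 8-cell embryos and lower in control blastocysts than in control morulae. Erlin1 was lower in control morulae than in 8-cell embryos, and Ggps1 was lower in control blastocysts than in control morulae. Of 17 tested genes of sterol uptake, storage and efflux, Apoe, Abcg1 and Soat1 were higher in morulae than at the 8-cell stage. That is 3 of 17, near the 14.3% of all genes that were higher in this step. Npc2 was lower in control blastocysts than in control morulae, where 7.46% of all genes were lower.

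Of 21 tested genes of fatty acid elongation and activation, 10 rose from the 8-cell stage to the morula and none fell, where 14.3% of all genes rose and 10.7% fell. In split against control blastocysts, where 3.42% of all genes were higher and 1.32% lower, Tecr, the reductase that ends each round of elongation, was higher by 2.31 ± 0.36 on the log2 scale (adjusted p = 0.000429), and the mitochondrial thioesterase Acot2 was lower by 1.21 ± 0.33 (adjusted p = 0.0383). Of 14 tested genes of lipid droplets and triglycerides, 5 rose from the 8-cell stage to the morula, where 14.3% of all genes did, and Agpat2, an acyltransferase of glycerolipid assembly, was higher in split than in control blastocysts by 1.27 ± 0.30 (adjusted p = 0.0129).

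Of 18 tested genes of fatty acid oxidation, 10 rose from the 8-cell stage to the morula, where 14.3% of all genes did. From control morula to control blastocyst 1 rose and 3 fell, where 3.12% of all genes rose and 7.46% fell. In split against control blastocysts 2 were higher, where 3.42% of all genes were: Slc25a20, the carnitine carrier of the inner mitochondrial membrane, by 1.41 ± 0.27 (adjusted p = 0.00263), and Hadhb, a subunit of the trifunctional protein, by 1.26 ± 0.25 (adjusted p = 0.00334).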

How the data were processed

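Each of the 24 embryos gave 1 poly(A) Smart-seq2 library. Whole-number read counts per gene (37229 genes) and TPM (15625 genes) were deposited by the authors. Per the submitters' processing notes, reads were handled with FastQC, MultiQC, cutadapt, HISAT2 and featureCounts on GRCm39, with edgeR also named. Versions, gene annotation, strand setting and the handling of shared reads are not given in the sources used here.

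From the counts, sisters were summed to 18 units and genes filtered with filterByExpr. A single edgeR 4.0.16 quasi-likelihood fit of the 5 groups (TMM, robust, 13 residual degrees of freedom, R 4.3.3) gave all contrasts, adjusted over 15875 genes. DESeq2 1.42.0, limma 3.58.1 on log2(TPM + 1) or voom weights, other scalings and filters, subsets of sisters or groups, and leaving out each unit were alternatives. TPM of sisters were averaged. The edgeR steps were tested on simulated data. The 39 members, the lists and the motifs were chosen with earlier results of these data known. Named in full were members called in a split comparison, the called members of largest change in each stage step (up to 6 higher, 4 lower) and 5 regulators. Gene overlaps come from GENCODE M21 (GRCm38), promoters from RefSeq. Some genes of the further lists are not reported here.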

Additional observations from a re-analysis of the deposited data

Results flagged for a closer look

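Within groups of 4 to 6 embryos, 128 gene-by-group sets were looked at over 32 of the members, and 10 held 1 embryo far from the rest. Chance gives about 1 such set in 20. Among 8-cell embryos, replicate 3 was high for Srebf2, at 60.4 CPM with the others at 4.73 to 5.81, and was the only one with any Tm7sf2, at 0.0417 CPM. Replicate 4 was low for Dbi, at 13.2 CPM with the others at 38.2 to 39.4. Among control morulae, Sc5d was high in replicate 1 at 162 CPM, Elovl6 was low in replicate 3 at 177 CPM, and Acot8 was high in replicate 5 at 23.3 CPM.

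Among single split morulae the embryo apart from the rest was always the sister numbered 2. Fads2 was at 9.33 CPM in the sister of pair 1 and at 0 in the other 5 embryos. Sqle was at 241 CPM in that of pair 2, with the others at 72.2 to 117. Acot8 was at 67.8 CPM in that of pair 3, with the others at 8.43 to 21.1. Among single split blastocysts, Scd1 was at 564 CPM in the sister numbered 1 of pair 3, with the others at 322 to 405.

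The split effect differed between the stages, by a test of the difference itself, for 4 members. On the log2 scale the effect at the blastocyst minus that at the morula was 3.01 for Idi1, 2.337 for Fdft1, 2.628 for Ebp and 1.902 for Dbi. The effect was more positive at the blastocyst in each.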

How the results depend on the processing

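Counts of called members moved by over 1.5 times in these cases. Blastocyst against morula in controls went from 13 to 20 with limma on log2(TPM + 1), while the share of all genes called higher went from 3.12% to 17.2%. Morula against 8-cell went from 19 to 12 with the compared groups alone, and that share from 14.3% to 13.8%. Split against control blastocysts went from 4 to 8 with DESeq2, 8 with limma-voom, 17 with the compared groups alone and 2 with the sisters numbered 1 alone. The share of all genes called higher there went from 3.42% to 5.54%, 1.82%, 8.94% and 2.4%, in the same order. Split blastocysts against split morulae went from 13 to 20 with DESeq2, 25 with each embryo as its own sample, 29 with limma-voom and 24 with log2(TPM + 1). All genes called higher went from 1.22% to 5.05%, 7.13%, 13.6% and 5.5%, in the same order. Split against control morulae went from 0 to 3 with DESeq2 and 1 with each embryo as its own sample. Of all genes, the share called higher went from 0.0693% to 1.68% and 0.466%. The stage difference of the split effect went from 4 to 2 with library totals alone, 1 with the sisters numbered 1 alone, 2 with limma-voom, 1 with log2(TPM + 1) and 0 with log2(TPM + 0.1). Its share of all genes called higher went from 1.37% to 0.466%, 0.686%, 0.951%, 0.288% and 0.198%. The cause was not tested.

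Leaving out 1 unit at a time gave 5 to 12 members for blastocyst against morula in controls and 2 to 4 for the stage difference. Of all genes, 1.41% to 2.72% and 0.562% to 1.15% were called higher in these fits. Srebf2 between 8-cell and morula ran from -0.364 to 1.848, turning sign without 8-cell replicate 3. Of the other alternatives for single genes, 1512 kept direction and side of the threshold, 156 lost the call and 10 gained one. Sisters of split morula pair 1 differed by 0.648 in place of 0.798 on log2(TPM + 1). With library totals alone the median of all genes moved from 0.108 to 0.529 for blastocyst against morula in controls, and that of the members from 1.218 to 1.647.

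With the replicate number as a block, 9 members were called for blastocyst against morula in controls, 15 for morula against 8-cell, 4 for split against control blastocysts and 3 for the stage difference. The shares of all genes called higher were 1.91%, 12.2%, 3.16% and 0.901%, in that order. The labels do not say that control replicate numbers are shared between stages. Over 31 same-numbered pairs the correlation of deviations ran from -0.033 to 0.085. Over pairs with different numbers it ran from -0.11 to 0.053. Correlations this small cannot show whether samples of one number share an origin or a batch. Depth limits genes near 0, such as Fads2 and Tm7sf2.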
